A study of Mus musculus with 6 samples.

Results

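Nlrp6 and 8 other genes of the inflammasome were described in the distal colon of male mice. The members were chosen by name as sensors, adaptor, caspases and products of inflammasomes, with the genotype difference of these same libraries already known: they are the sensors Nlrp6, Nlrp3, Nlrc4 and Aim2, the adaptor Pycard, the caspases Casp1 and Casp4, and the products Il18 and Gsdmd. All 9 were found among the 24617 rows of the deposited expression table, each in 1 row. Messenger RNA was sequenced from 3 TNFR2-knockout (KO) and 3 wildtype (WT) mice, all C57Bl/6 males of 8 weeks with no treatment named, and each library came from a separate mouse. TNFR2, encoded by Tnfrsf1b, is the second receptor for tumor necrosis factor. The knockout is labelled for the whole animal, and the sources used here do not say which part of the gene was deleted. Because the members were chosen with the KO against WT contrast known, their genotype differences are given as a description, with no test.

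An inflammasome is a protein platform that forms when a sensor in the cytosol meets a microbial or danger signal. The sensor gathers the adaptor ASC, the product of Pycard, which in turn gathers caspase 1, and this protease cuts the precursors of IL-18 and IL-1β and the pore-forming protein gasdermin D. In the intestine Nlrp6 is known as a sensor of epithelial cells, including goblet cells, and mouse studies have linked it to IL-18 production, mucus secretion and control of the gut microbiota. Nlrp3 is known mostly from macrophages and other myeloid cells.

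The sequence just upstream of the start site is shown for Nlrp6, whose level differed most among the members between the genotypes, and for the 2 caspases and Il18, the product with the highest level. Each is the 250 bases before the RefSeq start on the plus strand of GRCm38.p6, the assembly that mm10 names, written 5′ to 3′: Nlrp6 at chr7:140920652-140920901, Casp1 at chr9:5298267-5298516, the first of 2 Casp4 starts at chr9:5308599-5308848 and Il18 at chr9:50554450-50554699. Capitals mark matches to any of 7 motifs searched on both strands.
Nlrp6: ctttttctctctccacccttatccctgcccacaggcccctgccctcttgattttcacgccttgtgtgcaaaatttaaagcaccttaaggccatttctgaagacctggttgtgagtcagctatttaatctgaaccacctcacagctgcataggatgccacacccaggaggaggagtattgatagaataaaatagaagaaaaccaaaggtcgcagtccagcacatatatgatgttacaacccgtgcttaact
Casp1: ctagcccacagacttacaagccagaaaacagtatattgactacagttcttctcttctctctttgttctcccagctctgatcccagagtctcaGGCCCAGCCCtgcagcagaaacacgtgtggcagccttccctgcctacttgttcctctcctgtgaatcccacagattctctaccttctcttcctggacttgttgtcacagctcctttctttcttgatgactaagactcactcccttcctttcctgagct
Casp4: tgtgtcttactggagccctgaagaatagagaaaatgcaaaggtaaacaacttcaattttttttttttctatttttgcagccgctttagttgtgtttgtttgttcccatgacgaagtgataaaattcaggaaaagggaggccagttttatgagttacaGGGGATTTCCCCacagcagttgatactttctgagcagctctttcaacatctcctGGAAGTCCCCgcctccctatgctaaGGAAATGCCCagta
Il18: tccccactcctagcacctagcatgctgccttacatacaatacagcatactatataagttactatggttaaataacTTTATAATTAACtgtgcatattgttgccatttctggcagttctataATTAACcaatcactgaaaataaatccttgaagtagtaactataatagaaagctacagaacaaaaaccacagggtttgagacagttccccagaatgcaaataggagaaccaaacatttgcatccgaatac

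The motifs were the TATA box (TATAAA, in 12.4% of all 32851 mouse promoters of this length), a loose NF-kB site (GGG and CC with 5 bases between, 45.8%), the interferon-stimulated response element (GAAA and GAAA with 2 bases between, 2.98%), a direct repeat of nuclear receptors (AGGNCA and AGGNCA with 1 base between, 0.338%), an HNF1 motif (GTTAAT, 6.43%), a CDX core (TTTATNG, 9.81%) and the GC box (GGGCGG, 32.7%). They were chosen after the expression values were seen. The Nlrp6 window held no match to any of these letters. Of the windows not shown, those of Nlrc4, Pycard and the first Nlrp3 start held none either. The Aim2 window held a GC box at -95 and that of the second Nlrp3 start NF-kB letters at -186. The first Casp4 window held NF-kB letters at -93 to -91, where 4 matches on the 2 strands overlap in the run GGGGATTTCCCC, and further matches at -39 and -14, counted back from the start. The Casp1 window held 1 NF-kB match at -158. In the Il18 window the HNF1 letters stood at -169 and -129 and the TATA letters directly beside the first of these at -175, all on the minus strand. A match is a description of letters and not a site shown to be used. The authors' Nlrp6 row begins 190 bases before the RefSeq start, so part of the Nlrp6 window lies inside the authors' gene model. Their Casp4 row begins at 5308795, inside the Casp4 window, so the matches at -39 and -14 lie within that row. The whole Il18 window lies within the authors' Il18 row, which begins at 50533086. RefSeq promoters were matched for 8 of the 9 members.

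Expression values are FPKM, fragment numbers scaled to transcript length and to the mapped fragments of the library, so levels of different genes can be set side by side. The FPKM of a library added up to between 655274 and 709593, and 12974 to 13625 named rows reached 1 FPKM. The stated depth averaged 50M paired reads, but the number of fragments behind each value is unknown, and no counting interval can be given. Tnfrsf1b averaged 1.07 ± 0.131 FPKM in KO colons and 7.95 ± 0.398 FPKM in WT colons (SD, n = 3 each), in the direction the labels imply in all 6 libraries.

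Nlrp6 (chromosome 7, 140920712 to 140929289, mm10, plus strand, protein coding) measured 55.7, 47.3 and 53.9 FPKM in KO libraries 1, 2 and 3, against 26.9, 39.6 and 28.6 FPKM in WT libraries 1, 2 and 3. Every KO library was above every WT library, and the gap was narrowest between KO library 2 and WT library 2. The mean was 52.3 ± 4.41 FPKM in KO and 31.7 ± 6.89 FPKM in WT (SD, n = 3 each), a fold of 1.65. On the log2(FPKM + 1) scale, which understates the change of low genes, the KO minus WT difference was 0.72 ± 0.15 (SE from the fit over all genes). Of the 14564 genes fitted, 0.645% had a difference as high or higher. In the authors' deposited table Nlrp6 has a log2 fold change of 0.72, a p-value of 0.00025 and a q-value of 0.0200, and is marked significant. It is the 1 member so marked, and among the 20840 rows that do not carry a p-value of 1 together with a fold change of 0, the authors' deposited table marks 1.21%.

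**Figure D1:**
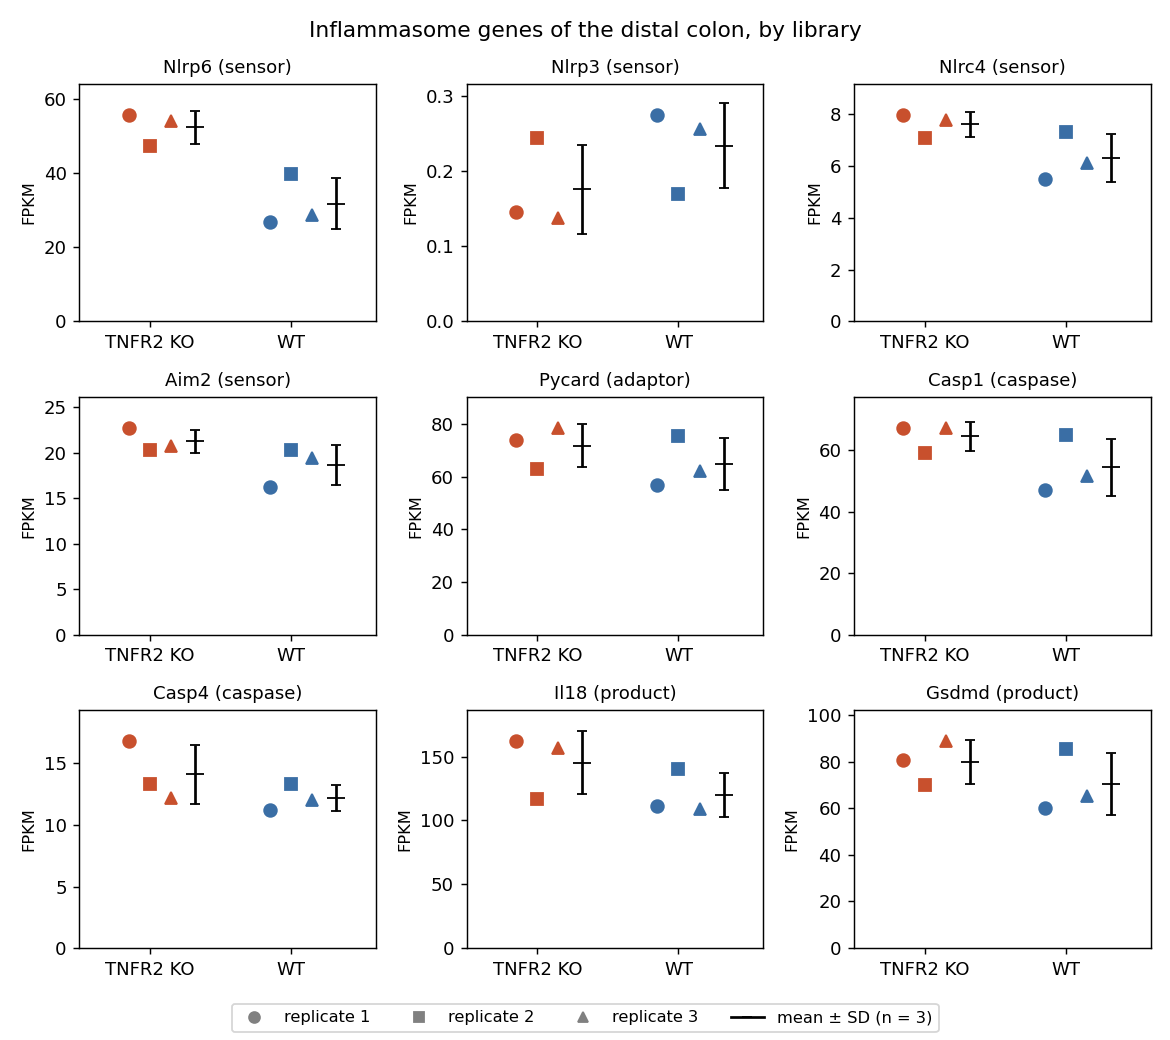
FPKM of the 9 members in each library, with TNFR2 KO left of WT in each panel; point shapes give the replicate number, and black bars the mean ± SD of 3 libraries. Nlrp6 in KO libraries lies between 47.3 and 55.7 FPKM, above all WT libraries, whereas the Aim2 groups only just separate, the other 7 members overlap between genotypes, and Nlrp3 reaches at most 0.275 FPKM.

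The other sensors differed less between the genotypes than Nlrp6 did. Nlrc4 (chromosome 17, 74425895 to 74459202), which signals for the NAIP receptors of flagellin and of bacterial secretion systems, measured 7.98, 7.07 and 7.76 FPKM in KO against 5.51, 7.32 and 6.12 FPKM in WT libraries. Its groups overlapped, since WT library 2 lay above KO library 2. Its KO minus WT difference was 0.24 ± 0.10 (log2, SE). Aim2 (chromosome 1, 173419115 to 173466133), a receptor of double-stranded DNA in the cytosol, measured 22.7, 20.3 and 20.7 FPKM in KO against 16.2, 20.3 and 19.4 FPKM in WT libraries. Its groups met without overlapping, as KO library 2 and WT library 2 both round to 20.3 FPKM with KO the higher. The difference was 0.18 ± 0.10 (log2, SE). Nlrp3 (chromosome 11, 59542686 to 59566956) measured 0.145, 0.244 and 0.138 FPKM in KO against 0.275, 0.169 and 0.256 FPKM in WT libraries. These levels lay below the minimum mean of 0.5 FPKM for the fit, the groups overlapped, and Nlrp3 was the 1 member with a lower mean in KO, 0.176 ± 0.0594 FPKM against 0.233 ± 0.0563 FPKM in WT (SD, n = 3 each).

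The shared adaptor Pycard (chromosome 7, 127989680 to 127993938, minus strand) measured 74.1, 62.8 and 78.5 FPKM in KO against 56.7, 75.6 and 62.1 FPKM in WT libraries. The groups overlapped widely, with WT library 2 above 2 of the 3 KO libraries. Casp1 (chromosome 9, 5298517 to 5307281), which encodes caspase 1, measured 67.2, 59.1 and 67.2 FPKM in KO against 46.9, 64.8 and 51.5 FPKM in WT libraries. Its neighbour Casp4 (5308795 to 5336791), the mouse gene of caspase 11, a sensor of lipopolysaccharide in the cytosol, begins 1513 bases further on. Casp4 measured 16.8, 13.3 and 12.2 FPKM in KO against 11.2, 13.3 and 12.0 FPKM in WT libraries. Both caspases overlapped between genotypes, and Casp4 was high in KO library 1 alone. The KO minus WT differences were 0.15 ± 0.13 for Pycard, 0.25 ± 0.13 for Casp1 and 0.19 ± 0.12 for Casp4 (log2, SE).

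Among the products, Il18 (chromosome 9, 50533086 to 50582256), the cytokine precursor most associated with Nlrp6, measured 162, 117 and 157 FPKM in KO against 111, 140.1 and 109 FPKM in WT libraries. KO library 2 lay within the WT range, so the groups overlapped. The interval of the Il18 row is shared with the rows of Bco2 and Tex12, and the sources used here do not say whether reads were divided among them. Bco2, a carotenoid-cleaving enzyme, measured 12.1, 8.48 and 11.8 FPKM in KO against 5.71, 7.09 and 5.52 FPKM in WT libraries, without overlap. Tex12 measured 1.75, 3.31 and 3.52 FPKM in KO against 0.727, 1.37 and 1.96 FPKM in WT libraries, with overlap. The KO minus WT difference was 0.72 for each (log2), and whether it bears on the Il18 value was not tested. Gsdmd (chromosome 15, 75862267 to 75867711), whose cut product forms the membrane pores of pyroptosis, measured 80.9, 70.1 and 88.8 FPKM in KO against 60.3, 85.4 and 65.2 FPKM in WT libraries, and its groups overlapped too. The differences were 0.27 ± 0.15 for Il18 and 0.19 ± 0.15 for Gsdmd (log2, SE).

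In the fit over all genes, 0 of the 8 members that reached the minimum were called at a limma, Benjamini-Hochberg adjusted p under 0.05, where 0.288% of all 14564 genes were, and 1, Nlrp6, had an unadjusted p under 0.05, where 16.2% of all genes did. The authors' table, from a different test on the same libraries, marks Nlrp6, as given above. Values of KO and WT did not overlap for Nlrp6 and Aim2, 2 of the 9 members, both with KO above WT, and for 21.8% of the genes fitted, 9.3% with KO above WT. All 8 fitted members had a higher mean in KO, against 42.6% of all genes, and the 7 besides Nlrp6 had folds between 1.11 and 1.21. Their median difference with Nlrp6 included was 0.22, against -0.03 over all genes (log2). The members were chosen on this contrast, so nothing is read from these counts.

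The order of the levels was the same in both genotypes. In KO libraries Il18 was highest (145 ± 24.4 FPKM), followed by Gsdmd (80.0 ± 9.37), Pycard (71.8 ± 8.12), Casp1 (64.5 ± 4.68), Nlrp6 (52.3 ± 4.41), Aim2 (21.2 ± 1.30), Casp4 (14.1 ± 2.43), Nlrc4 (7.60 ± 0.472) and Nlrp3 (0.176 ± 0.0594). In WT libraries the same order ran from Il18 at 120.1 ± 17.3 FPKM over Gsdmd at 70.3 ± 13.3, Pycard at 64.8 ± 9.73, Casp1 at 54.4 ± 9.31, Nlrp6 at 31.7 ± 6.89, Aim2 at 18.6 ± 2.13, Casp4 at 12.2 ± 1.09 and Nlrc4 at 6.32 ± 0.922 to Nlrp3 at 0.233 ± 0.0563 FPKM (SD, n = 3 each). Of the 8 neighbouring pairs 6 did not overlap in their ranges, in KO and in WT alike. Gsdmd against Pycard and Pycard against Casp1 overlapped in their ranges in both genotypes. Within single libraries Gsdmd was above Pycard in 6 of 6 and Pycard above Casp1 in 6 of 6. Nlrp6 was 2.46 times as high as Aim2, the next sensor, in KO and 1.70 times in WT.

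Within each genotype the fitted members tended to be high or low in the same libraries. WT library 2 was the highest WT library for all 8 fitted members, as it was for 43.2% of all genes, and KO library 2 was the lowest KO library for 7 of the 8, Casp4 being the exception, as it was for 47.6% of all genes. Both held for 7 members and for 30.7% of all genes. Nlrp3, below the minimum, ran the other way, with KO library 2 its highest KO value and WT library 2 its lowest WT value. Genes measured in the same libraries are not independent, and no test was made. Bulk tissue does not show which cells express the members.

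The colon epithelium, by its markers, varied in a similar way. Its level, taken as the geometric mean of FPKM + 0.1 over 12 marker rows such as Epcam, Vil1 and Cdh1, was 406, 306 and 394 FPKM in KO libraries 1, 2 and 3, against 298, 415 and 328 FPKM in WT libraries 1, 2 and 3. KO library 2 was the lowest KO library and WT library 2 the highest WT library, and the genotypes overlapped, with 9 of the 12 markers higher in mean in KO and mean levels of 369 ± 54.6 FPKM in KO and 347 ± 60.9 FPKM in WT (SD, n = 3 each). In bulk tissue fewer cells of a type and less RNA per cell cannot be told apart.

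Divided by this epithelial level, Nlrp6 stood at 13.7%, 15.4% and 13.7% in KO libraries against 9.02%, 9.53% and 8.72% in WT libraries. The coefficient of variation of the WT values was 4.52% on this ratio, against 21.8% for FPKM. Every KO ratio was above every WT ratio, with a fold of 1.57. The part of the epithelium in the Nlrp6 difference was not tested. Casp1 stood at 16.5%, 19.3% and 17.1% in KO against 15.7%, 15.6% and 15.7% in WT libraries, a coefficient of variation in WT of 0.436% against 17.1% for FPKM. Il18 stood at 39.8%, 38.3% and 39.8% in KO against 37.3%, 33.8% and 33.3% in WT libraries, and Nlrc4 at 1.96%, 2.31% and 1.97% against 1.85%, 1.76% and 1.87%. On this ratio the genotypes did not overlap for 4 of the 9 members, Nlrp6, Nlrc4, Casp1 and Il18, all with KO above WT. Among all genes 7.47% did not overlap, and 3.58% had KO above WT. The folds of Nlrc4, Casp1 and Il18 were 1.12 to 1.14. Aim2, Pycard, Casp4, Gsdmd and Nlrp3 overlapped. The ratio uses the same FPKM, and the members were chosen on this contrast, so nothing is read from this count. The WT spread was wider on the ratio for Nlrp3, at 37.8% against 24.2% on FPKM, and the KO spread was wider for 4 members: Aim2 at 12.4% against 6.12%, Nlrc4 at 9.53% against 6.20%, Casp1 at 8.33% against 7.25% and Nlrp3 at 51.1% against 33.7%. Nlrp6 relative to the caspase it acts through, as the ratio of Nlrp6 to Casp1, was 0.828, 0.800 and 0.802 in KO libraries against 0.573, 0.610 and 0.555 in WT libraries. Its ratios to Nlrc4, Aim2, Pycard, Casp4, Il18 and Gsdmd were likewise higher in every KO library than in any WT library. Nlrp6 was chosen with its genotype difference known, and these ratios restate that difference rather than adding to it.

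**Figure D2:**
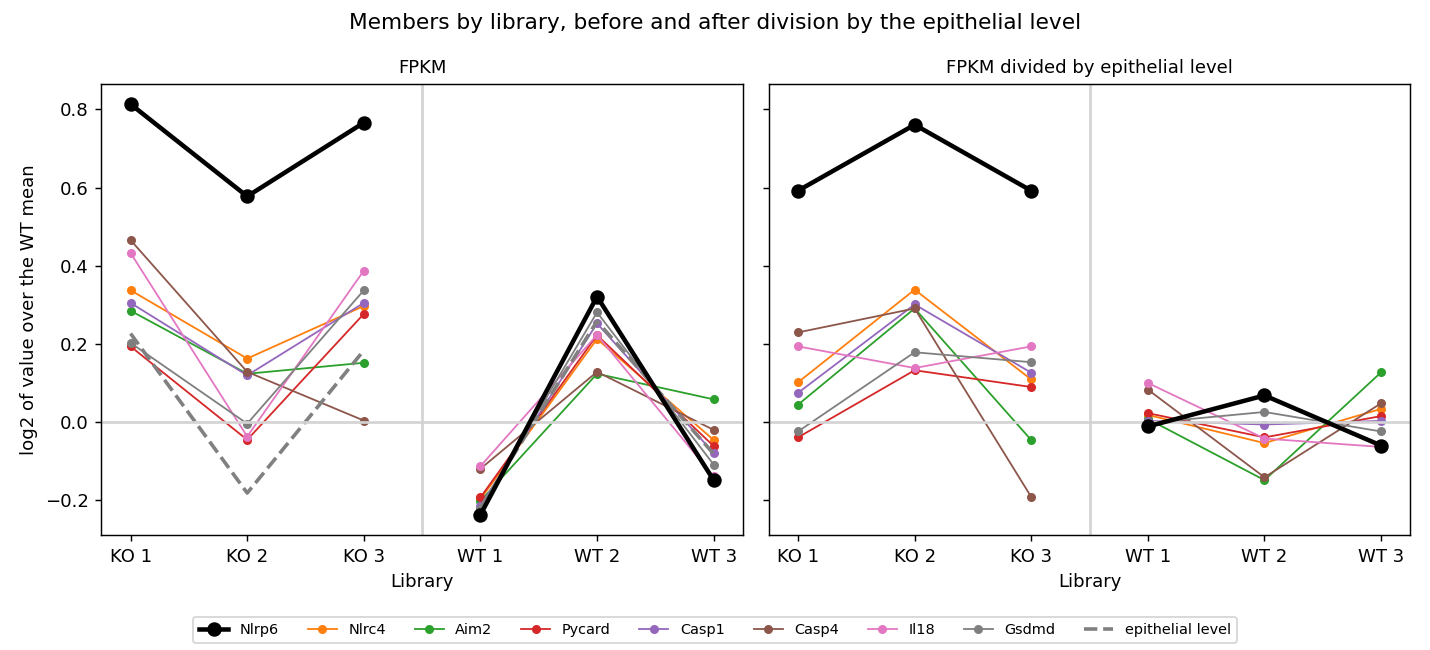
Each library's value over the WT mean, on a log2 axis, for the 8 members above 0.5 FPKM: FPKM with the epithelial level dashed (left) and FPKM divided by that level (right), KO libraries left of WT libraries in each panel. Before division most lines follow the dashed line's dips in KO 2 and WT 1. After division Nlrp6 is at 13.7% to 15.4% of the epithelial level in KO and at 8.72% to 9.53% in WT.

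With the mean log2 level of the epithelial markers as a covariate in limma, the Nlrp6 difference was 0.64 ± 0.07 (log2, SE) and those of the other fitted members lay between 0.08 ± 0.05 for Pycard and 0.19 ± 0.06 for Nlrc4. In that fit 1 of the 8 members, Nlrp6, was called, where 0.906% of all genes were. Nlrp6 was chosen with its genotype difference known, so nothing is read from the call with this covariate. Leaving out WT library 2 left 1 of 8 called, Nlrp6 at a difference of 0.89 ± 0.10 (log2, SE), where 0.481% of all genes were called. That library held the WT value of Nlrp6 nearest to KO, 39.6 FPKM. Its removal widens the difference by construction, so nothing is read from this call. Leaving out any other single library left 0 called.

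Other cells and tissues also differed between libraries, and these values stand beside every genotype difference given here. Summed over 10 marker rows each, skeletal muscle was at 151, 1993 and 1424 FPKM in KO against 8799.9, 2697 and 3159.8 FPKM in WT libraries, and squamous epithelium of skin at 62.7, 544 and 995 FPKM in KO against 1089.9, 419 and 1142 FPKM in WT libraries. Muscle markers were lower in every KO library, skin markers overlapped, and 0 of the 10 rows of either list had a higher mean in KO. The 12 macrophage and monocyte rows summed to 314 to 429.7 FPKM in KO and 492 to 526 FPKM in WT libraries, without overlap, and 2 of the 12 had a higher mean in KO. The 7 goblet cell rows summed to 5434 to 8449.9 FPKM in KO and 5218 to 6711 FPKM in WT libraries, and all 7 had a higher mean in KO. The 6 smooth muscle rows summed to 5778 to 7945 FPKM in KO and 6275 to 10024 FPKM in WT libraries, and 0 of the 6 had a higher mean in KO. The 9 lymphocyte rows summed to 21.0, 9.13 and 6.36 FPKM in KO against 23.7, 22.7 and 11.7 FPKM in WT libraries, with overlap, and 0 of the 9 had a higher mean in KO. The 5 neutrophil rows summed to 2.97 to 19.6 FPKM in KO and 6.44 to 14.9 FPKM in WT libraries, and 3 of the 5 had a higher mean in KO. No marker in these lists was at 0 in all 6 libraries. With the skin markers as a covariate the Nlrp6 difference was 0.62 ± 0.15 (log2, SE), no member was called, and the Casp4 difference was 0.03 (log2). Without KO library 1 and WT library 1, the lowest and highest in muscle markers, the Nlrp6 difference was 0.57 ± 0.17 (log2, SE) from 2 libraries a group. The libraries kept still differed in muscle markers, at 1993 and 1424 FPKM in KO against 2697 and 3159.8 FPKM in WT. This fit therefore does not separate muscle content from genotype. The part of the skeletal muscle, macrophage, goblet, smooth muscle, neutrophil and lymphocyte markers in the Nlrp6 difference was not tested.

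**Figure D3:**
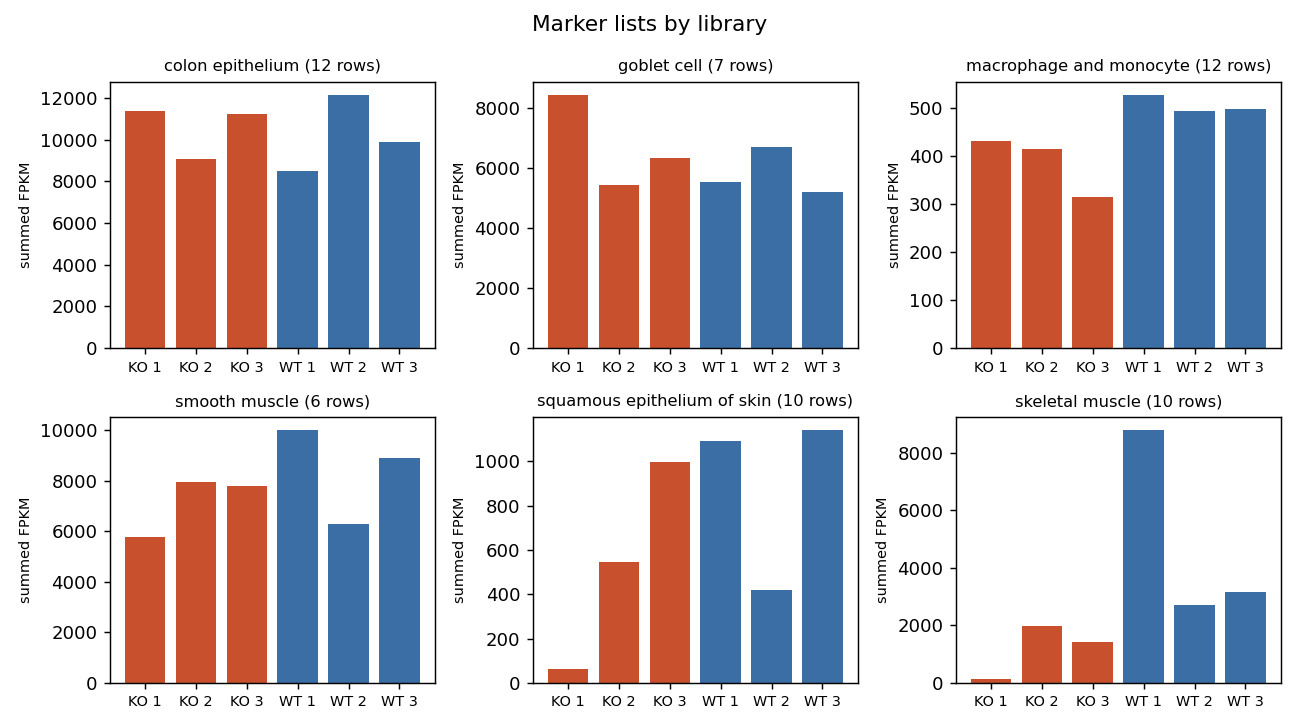
Summed FPKM of 6 marker lists in each library, KO left of WT, each panel with its own axis starting at 0. Epithelial sums overlap between genotypes (9083 to 11353 FPKM in KO, 8470.3 to 12135 FPKM in WT), whereas skeletal muscle ranges from 151 FPKM in KO 1 to 8799.9 FPKM in WT 1.

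Of the 10 other named rows within 50 kb of Nlrp6, Psmd13, a proteasome subunit, averaged 69.0 ± 4.05 FPKM in KO and 72.6 ± 1.38 FPKM in WT, and Athl1, the nearest row downstream, 10.2 ± 0.922 FPKM in KO and 9.56 ± 0.387 FPKM in WT (SD, n = 3 each). Cox8b, a cytochrome oxidase subunit known from striated muscle and brown fat, measured 9.22, 58.5 and 54.2 FPKM in KO against 196, 57.3 and 69.1 FPKM in WT libraries, with its lowest value in KO library 1 and its highest in WT library 1, as for the skeletal muscle markers. All 10 overlapped between genotypes. These rows were looked up after the values were seen. No other row of the table overlaps the Nlrp6 interval.

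Over the 6 libraries the genes whose pattern was most like that of Nlrp6, by Pearson correlation of log2(FPKM + 1) among 6189 other single-gene rows averaging at least 10 FPKM, were Hpgd (0.997), the prostaglandin dehydrogenase, and the ubiquitin ligase genes Wwp2 (0.997) and Hectd3 (0.995). Hpgd measured 113, 108 and 109.7 FPKM in KO against 88.7, 100.5 and 90.9 FPKM in WT libraries, without overlap, and its fold was 1.18 against 1.65 for Nlrp6. The most opposite were Calu (-0.998), a calcium-binding protein of the secretory pathway, Vat1 (-0.995) and Dpysl3 (-0.995). Among the members, of which Nlrc4 and Nlrp3 average under 10 FPKM and were not in that ranking, the correlation with Nlrp6 was highest for Nlrc4 (0.952) and Casp1 (0.917), lowest among the positive ones for Casp4 (0.698) and negative for Nlrp3 (-0.810). The correlations rest on 6 points that share genotype and tissue makeup and are given as a description.

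The other genes of the pathway fell into 6 lists of 93 rows in all, of which 72 reached the minimum of 0.5 FPKM. In limma 0 of the 72 were called higher and 0 lower at an adjusted p under 0.05 (0.185% and 0.103% of all genes), and 13 had an unadjusted p under 0.05, 8 higher and 5 lower, where 16.2% of all genes did. With the epithelial covariate 2 were called, both higher, among them Naip6 (limma adjusted p = 0.0486, 0.39 ± 0.06, log2, SE). In that fit 0.906% of all genes were called in either direction, 67 of the 132 higher. The median difference over the 72 was -0.02, against -0.03 over all genes (log2). KO and WT did not overlap for 15 of the 72, which is 20.8% against 21.8% of all genes.

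Of 13 fitted genes in the list of other sensors, 7 had a higher and 6 a lower mean in KO, with a median of 0.07 (log2). That list also holds Dpp8, lower in mean in KO, and Dpp9, higher in mean in KO, which are not sensors themselves. The NAIP genes encode the receptors that hand bacterial ligands to Nlrc4. The 2 most highly expressed rows were one naming Ceacam20 and Nlrp9b together, at 53.6 ± 6.05 FPKM in KO and 49.3 ± 9.87 FPKM in WT (limma adjusted p = 0.689), and Dhx9, an RNA helicase, at 38.5 ± 1.59 FPKM in KO and 41.2 ± 1.92 FPKM in WT (adjusted p = 0.506). The shared row does not tell Ceacam20 and Nlrp9b apart, so the level of Nlrp9b itself is unknown. Naip1 averaged 40.8 ± 3.43 FPKM in KO and 36.7 ± 6.57 FPKM in WT (adjusted p = 0.558). Naip6, in a row shared with Naip7, measured 13.9, 12.0 and 12.6 FPKM in KO against 8.38, 10.2 and 9.18 FPKM in WT libraries. Its groups did not overlap, and its difference of 0.43 ± 0.09 (log2, SE) was not called without the covariate (adjusted p = 0.159). Naip1, Naip5, Naip6, Nlrp1b and Ifi204 were named after their values were seen. Naip5 measured 7.32, 7.12 and 7.11 FPKM in KO against 5.09, 6.57 and 5.13 FPKM in WT libraries (adjusted p = 0.246). Nlrp1b averaged 3.19 ± 0.190 FPKM in KO and 2.16 ± 0.581 FPKM in WT (adjusted p = 0.256). Ifi204 went the other way, at 1.66, 2.04 and 1.3 FPKM in KO against 2.65, 2.3 and 2.32 FPKM in WT libraries. It was lower in every KO library (limma adjusted p = 0.257). The NAIP genes are close copies of each other, and the assignment of reads they share is not stated, so their single values are uncertain. Of the 9 rows of other NLR genes 3 were fitted, and Nlrx1 (11.2 ± 0.844 FPKM in KO, 10.1 ± 1.40 FPKM in WT) and Nod1 (5.52 ± 0.324 FPKM in KO, 5.55 ± 0.682 FPKM in WT) were the highest (adjusted p = 0.558 and 0.997).

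Of 14 fitted rows of other caspases and pore-forming genes, 4 had a higher and 10 a lower mean in KO, with a median of -0.07 (log2). The row of Gsdmc, Gsdmc2 and Gsdmc4, gasdermins of the colon epithelium, was the highest at 689.7 ± 131 FPKM in KO and 571 ± 91.7 FPKM in WT (adjusted p = 0.459), and Gsdmc3 followed at 104 ± 12.7 FPKM in KO and 79.3 ± 11.1 FPKM in WT (adjusted p = 0.258). Both rows are near-identical paralogs and uncertain for that reason. Ninj1, which ruptures the membrane after pore formation and was named after its values were seen, measured 29.2, 25.3 and 27.3 FPKM in KO against 34.1, 34.1 and 35.7 FPKM in WT libraries, lower in every KO library (adjusted p = 0.180).

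**Figure D4:**
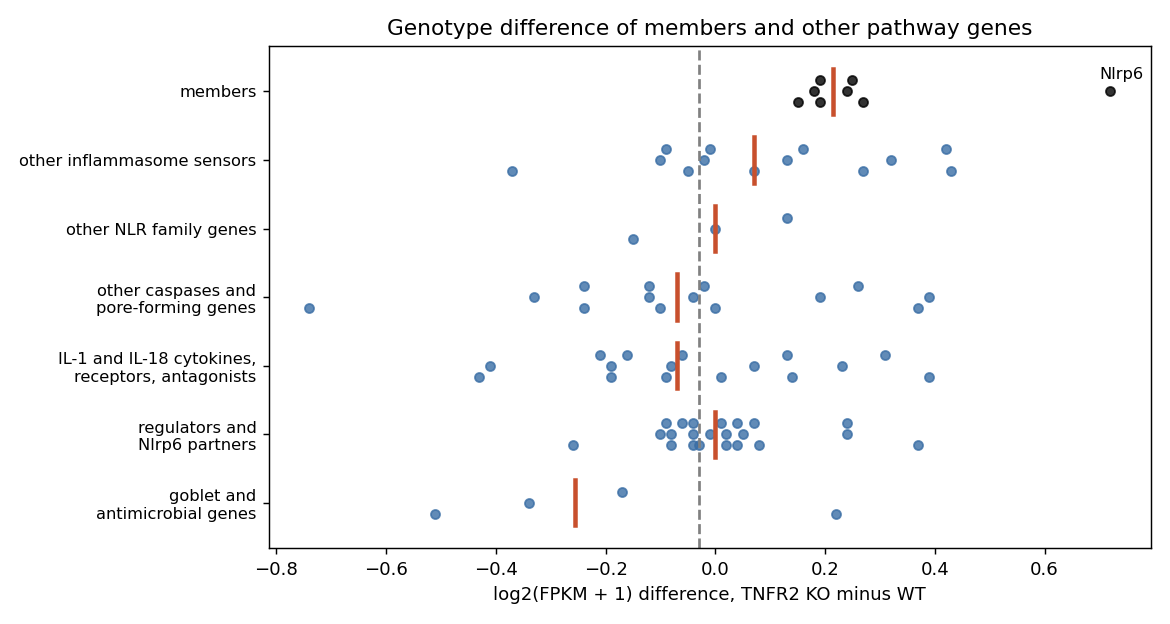
KO minus WT difference of log2(FPKM + 1) for the 8 fitted members and the fitted rows of the 6 pathway lists, each point a row, red bars the list medians and the dashed line the median of all genes (-0.03). Nlrp6 lies at 0.72, and the other members between 0.15 and 0.27.

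Of 16 fitted genes of IL-1 and IL-18 cytokines, receptors and antagonists, 7 had a higher and 9 a lower mean in KO, with a median of -0.07 (log2). Il1rn, the antagonist of the IL-1 receptor, measured 30.9, 36.3 and 36.4 FPKM in KO against 23.6, 28.9 and 25.9 FPKM in WT libraries, without overlap (adjusted p = 0.212), and Myd88, the adaptor of these receptors, 19.3 ± 1.79 FPKM in KO and 17.6 ± 0.624 FPKM in WT (adjusted p = 0.463). Il18bp, the soluble decoy of IL-18, Il1b and Il18r1 were named after their values were seen. Il18bp measured 1.26, 1.80 and 1.91 FPKM in KO against 1.17, 1.17 and 1.06 FPKM in WT libraries (adjusted p = 0.279). Il1b averaged 0.882 ± 0.502 FPKM in KO and 0.968 ± 0.444 FPKM in WT (adjusted p = 0.893), so the Il18 level lay far above that of Il1b in both genotypes. The IL-18 receptor gene Il18r1 was below the minimum, at 0.216 ± 0.0876 FPKM in KO and 0.185 ± 0.0526 FPKM in WT (SD, n = 3 each).

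Among 22 fitted regulators and Nlrp6 partners, 11 had a higher and 11 a lower mean in KO, with a median of 0.00 (log2). Hsp90ab1, a chaperone that stabilises NLR proteins, averaged 519.5 ± 34.7 FPKM in KO and 511 ± 3.65 FPKM in WT (adjusted p = 0.898), and Txnip, a thioredoxin-binding protein linked to Nlrp3, 348 ± 46.7 FPKM in KO and 367 ± 38.8 FPKM in WT (adjusted p = 0.757). Of the 8 goblet cell and antimicrobial genes linked to IL-18 and Nlrp6, 4 were fitted, 1 with a higher and 3 with a lower mean. Lyz1, a lysozyme known from Paneth cells, measured 28.7, 29.0 and 26.3 FPKM in KO against 44.9, 39.8 and 36.0 FPKM in WT libraries, lower in every KO library (-0.51 ± 0.09, log2, SE; adjusted p = 0.147). It has a close copy, Lyz2, which measured 169, 163 and 110.3 FPKM in KO against 246, 213 and 207 FPKM in WT libraries. Il22ra1, a chain of the IL-22 receptor, averaged 17.4 ± 1.00 FPKM in KO and 14.9 ± 2.23 FPKM in WT (adjusted p = 0.359). Adjusted p-values in these paragraphs are from limma with Benjamini-Hochberg adjustment over all 14564 genes.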

How the data were processed

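FPKM per gene and library were deposited by the authors, 1 column per library, per the file headers. Per the series' design text, reads were aligned with Tophat2 and Bowtie2, assembled with Cufflinks, and tested with Cuffdiff 2 at q under 0.05. The same table holds p-values and adjusted p-values (q-values) for KO against WT, per the file headers, which do not name the test. The submitters' processing notes name mm10. Minor releases, the annotation, strandedness and library scaling are not stated. The authors' deposited log2 fold changes hold a placeholder beyond any real value where a group mean is 0.

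Log2(FPKM + 1) was tested in limma 3.58.1 (R 4.3.3) with mean-variance trend and robust moderation, KO minus WT, all 6 libraries, over the 14564 named rows averaging at least 0.5 FPKM, and adjusted by Benjamini-Hochberg. Rows with no gene name (6.13%) were left out. The fit was also run on simulated data with noise independent between genes. Those data lack the shared tissue makeup of these libraries, so nothing is read from that run here. Tables were read with Python 3.11.15 and pandas 2.3.3. Gene lists were matched by symbol or RefSeq synonym. Members and lists were chosen with earlier results of these data known. The naming rule took all members, called pathway genes (up to 4 a list) or else the 2 highest, and the 3 genes most and least like Nlrp6. Alternatives covered pseudocount, filter, scaling, covariates, replicate block and left-out libraries. Values of 1 pathway gene are not reported here.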

Additional observations from a re-analysis of the deposited data

How the results depend on the processing

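The KO minus WT difference of the 8 fitted members stayed above 0 in all 17 alternatives, that of Nlrp6 between 0.57 and 0.89, of Il18 between 0.13 and 0.41 and of Casp4 between 0.01 and 0.28 (log2). Of these values 2 moved by more than the spread between replicates, those of Aim2 (0.04) and Casp4 (0.01) without KO replicate 1 and WT replicate 1, a fit chosen after seeing the data. Over all genes 42 were called, 22 without small RNA genes, 27 with the skin marker covariate, 132 with the colon epithelium marker covariate and 21 to 70 when single libraries were left out (21 without KO replicate 3, 22 without WT replicate 3, 27 without WT replicate 1, 70 without WT replicate 2). Members called were 0, 1 (Nlrp6) with the epithelium covariate, and 0 to 1 when single libraries were left out, the 1 being Nlrp6 without WT replicate 2. Pathway genes called were 0, 2 with the epithelium covariate, and 0 in each fit without 1 library. The causes of these changes were not tested. With the replicate number as a block 24 genes, 0 members and 0 pathway genes were called. Same-numbered libraries had correlations of -0.37, -0.34 and 0.21 between their deviations from the group means. Not every library correlated best with its own number. With 3 libraries a group that also differ in tissue makeup, these correlations cannot decide whether the numbers pair the mice. Low genes such as Nlrp3 are the least precise, and their depth is unknown.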
